A study of Mus musculus with 6 samples.

Results

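The genes described here are 40 interferon-stimulated genes, taken by name from a list that runs from the transcription factor gene Stat2 through antiviral effectors to the guanylate-binding proteins and immunity-related GTPases. All 40 are among the 23951 rows of the deposited expression table, and 38 of them reached a mean of 1 FPKM over the 6 libraries and were tested. FPKM is a fragment count divided by transcript length and by library size. RNA was measured in splenic CD8+ T cells of the mouse. They were sorted as naive cells by the markers GFP+, TCRbeta+, CD62Lhi and CD44lo-med, and then kept in IL-7 and IL-15, a pair of cytokines that sustain naive and memory T cells, until RNA was taken at 72 h. The DKO group has 3 libraries of cells whose genotype is labelled Tcf1-/-Lef1-/-, from mice with floxed Tcf1 and Lef1 alleles. The WT group has 3 libraries of cells labelled wild type. Per the series' design text both groups come from mice with hCD2-Cre, a Cre recombinase under control of human CD2 sequence, and Rosa26-lsl-GFP, a reporter that Cre switches on, so the GFP+ gate kept cells in which Cre had acted. Tcf1, encoded by Tcf7, and Lef1 are DNA-binding factors that share an HMG box and act in T cell development. The labels do not say whether libraries of a group come from separate animals, so a p-value here reflects only how these samples vary, and some of that may be technical; the RNAs that mark female and male cells, given below, differed within each group, so its libraries are not all repeats of 1 sample.

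Interferons are secreted cytokines that set cells in an antiviral state. Type I interferons bind a receptor made of IFNAR1 and IFNAR2 and, through JAK1 and TYK2, lead to a complex that holds STAT2 and IRF9 and binds interferon-stimulated response elements (ISRE) in promoters, whereas interferon gamma acts through gamma-activated sites (GAS). The genes they switch on make sensors of foreign RNA, enzymes that degrade RNA or stop its translation, and large GTPases that attack the vacuoles of intracellular microbes. Many of these genes keep a basal level in resting T cells.

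The promoters of several of these genes carry the response elements next to the transcription start, and 6 of them are printed here. They were picked among genes with a single RefSeq promoter window and an ISRE core in the stretch shown. Ifitm3 gave the smallest p between the genotypes at 72 h, and also had the largest rise over the culture in both genotypes. Among the genes that met these conditions, Igtp, Irgm2 and Gbp2 had the next largest rises, and Rsad2 and Ifit1 the largest falls. Each run covers 125 bases before to 30 bases after the start in RefSeq on GRCm38.p6, 5′ to 3′ on the gene's strand, and capitals mark matches to the ISRE core (GAAA, any 2 bases, GAAA) or the GAS (TTC, any 3 bases, GAA) on either strand. The stretches are chr7:141010715-141010869 (minus strand) for Ifitm3, chr11:58199431-58199585 (plus) for Igtp, chr11:58214852-58215006 (plus) for Irgm2, chr3:142620538-142620692 (plus) for Gbp2, chr12:26456423-26456577 (minus) for Rsad2 and chr19:34640764-34640918 (plus) for Ifit1.
Ifitm3: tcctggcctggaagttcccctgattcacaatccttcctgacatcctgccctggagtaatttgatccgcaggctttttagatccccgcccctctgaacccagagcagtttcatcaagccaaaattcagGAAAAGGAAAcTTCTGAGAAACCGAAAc
Igtp: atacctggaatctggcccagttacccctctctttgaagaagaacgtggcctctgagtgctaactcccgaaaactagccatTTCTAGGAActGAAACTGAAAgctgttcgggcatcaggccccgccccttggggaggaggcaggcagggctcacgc
Irgm2: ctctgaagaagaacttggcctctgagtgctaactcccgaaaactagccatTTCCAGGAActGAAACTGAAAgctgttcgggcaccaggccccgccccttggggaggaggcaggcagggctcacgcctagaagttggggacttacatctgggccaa
Gbp2: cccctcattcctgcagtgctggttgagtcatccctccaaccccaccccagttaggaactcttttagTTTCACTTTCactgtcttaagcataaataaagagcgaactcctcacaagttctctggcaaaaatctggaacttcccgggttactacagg
Rsad2: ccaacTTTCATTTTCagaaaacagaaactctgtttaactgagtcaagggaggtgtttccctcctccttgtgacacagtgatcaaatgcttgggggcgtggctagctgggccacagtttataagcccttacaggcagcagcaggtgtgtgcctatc
Ifit1: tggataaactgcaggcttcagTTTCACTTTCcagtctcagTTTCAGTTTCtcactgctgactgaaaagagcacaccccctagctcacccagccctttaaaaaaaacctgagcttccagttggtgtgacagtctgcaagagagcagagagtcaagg
Ifitm3 had 2 ISRE cores just after its start, with a GAS match that overlaps the second of them. Igtp and Irgm2, neighbouring paralogs, had the same arrangement of a GAS match followed by an ISRE core, and 107 of 110 bases around that core were identical between them (97.3%). Over the whole overlap of their promoter windows, aligned at that core, 184 of 270 bases were identical (68.1%). Ifit1 had 2 ISRE cores in tandem, and Gbp2 and Rsad2 had 1 each.

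A promoter window of 300 bases (250 before to 50 after the start) was matched by symbol for 28 of the 40 genes. The ISRE core was found on either strand in 18 of these 28 genes (64.3%), against 3.99% of 27025 genes with such windows. GAS matches were found in 11 of 28 (39.3%), against 9.55% of all genes, and 2 of the 12 GAS matches overlapped an ISRE core. The core bound by Tcf1 and Lef1, CTTTGA, was found in 7 of 28 (25%), against 18.2%. Among genes that the authors' deposited table calls higher at 72 h in both genotypes, 8 of the 9 with a window held an ISRE core and 6 of 9 a GAS match. Among those that the authors' deposited table calls lower in both, the numbers were 8 of 11 and 2 of 11. A match is a string of letters and shows neither binding nor use.

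The libraries were checked first. Tcf7 RNA stood at 288, 270 and 277 FPKM in DKO libraries 0, 1 and 2, against 564, 555 and 532 FPKM in WT libraries 0, 1 and 2 (log2 fold change -0.98, limma adjusted p = 0.0041). Lef1 was also lower in every DKO library (log2 fold change -1.33, limma adjusted p = 0.0066). These values are for whole genes, so they cannot show whether the floxed parts or the proteins were lost. Library names are the column numbers of the deposited table; which labelled replicate each one is cannot be read from it. Values are given in the order 0, 1, 2 throughout. Between 10473 and 10551 genes reached 1 FPKM per library. Absolute depth is unknown, since the values are not counts. All 9 CD8 T cell markers measured, such as Cd8a and Cd3e, were above 1 FPKM, and none of them was called between the groups. Of 7 genes used as plasmacytoid dendritic cell markers, a cell type known as a strong source of type I interferon, Siglech was at most 0.0615 FPKM and Klk1 was listed at 0 in every library. This list summed to 287 to 377 FPKM in DKO and 203 to 352 FPKM in WT libraries; the 3 of its 7 genes that averaged 1 FPKM were Bst2, one of the genes described here, Irf8 and Ccr9, which T cells express too and which was higher in DKO cells. The B cell genes Ms4a1, Pax5 and Fcrla were listed at 0 in every library, and the macrophage gene Lyz2 stood at 0.612, 0.948 and 0.0516 FPKM in DKO libraries, against 0.367, 4.30 and 0.797 FPKM in WT libraries. A mean of 1 FPKM was reached by 1 of 8 B cell genes (Cd79b), 5 of 11 myeloid genes, 1 of 6 NK cell genes (Eomes, also a T cell gene and lower in DKO cells), and 0 of the CD4 T cell, conventional dendritic cell and erythroid genes. Of the myeloid genes, Ctss was highest, at 92.0 to 115 FPKM in DKO and 107 to 143 FPKM in WT libraries. Cst3 followed, at 65.0 to 113 FPKM in DKO and 69.5 to 96.1 FPKM in WT libraries, and neither was called. The myeloid genes summed to 169 to 214 FPKM in DKO and 180 to 249 FPKM in WT libraries. Cd4 stood at 1.90, 0.389 and 0.502 FPKM in DKO libraries, against 0.0180, 0 and 0.0735 FPKM in WT libraries, with no overlap. The part of other cells in the results below was not tested.

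Most of these genes shared a pattern across libraries, which bears on every genotype value below and on the 72 h side of the culture changes. DKO library 0 had the lowest value of the DKO group for 35 of 38 genes (92.1%; 30.1% of all genes tested), and WT library 2 the lowest of the WT group for 32 of 38 (84.2%; 23.2% of all genes tested). Both held at once for 31 of 38 genes (81.6%), against 11.4% of all genes tested. Summed over the 40 genes, the level was 1469, 2974 and 2950 FPKM in DKO libraries and 1983, 2529 and 1480 FPKM in WT libraries, so the lowest library of either group was near the same level and the highest 2 were DKO libraries 1 and 2. On the log2(FPKM + 1) scale, the median deviation from a gene's mean over the 6 libraries was -0.48, 0.37 and 0.34 in DKO libraries and 0.06, 0.25 and -0.45 in WT libraries, while over all genes tested it stayed between -0.011 and 0.0081. Xist RNA, made by female cells, was 56.9, 1.46 and 0.0174 FPKM in DKO libraries and 55, 69.6 and 1.69 FPKM in WT libraries, so of the 2 low libraries DKO 0 had high and WT 2 low Xist. Ddx3y, a gene of the Y chromosome, was 0.0214, 21.96 and 27.7 FPKM in DKO libraries and 15.6, 0 and 20.5 FPKM in WT libraries. Female and male cells were thus unevenly spread over the libraries, WT library 0 held both RNAs, and the part of sex in the results was not tested.

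**Figure D1:**
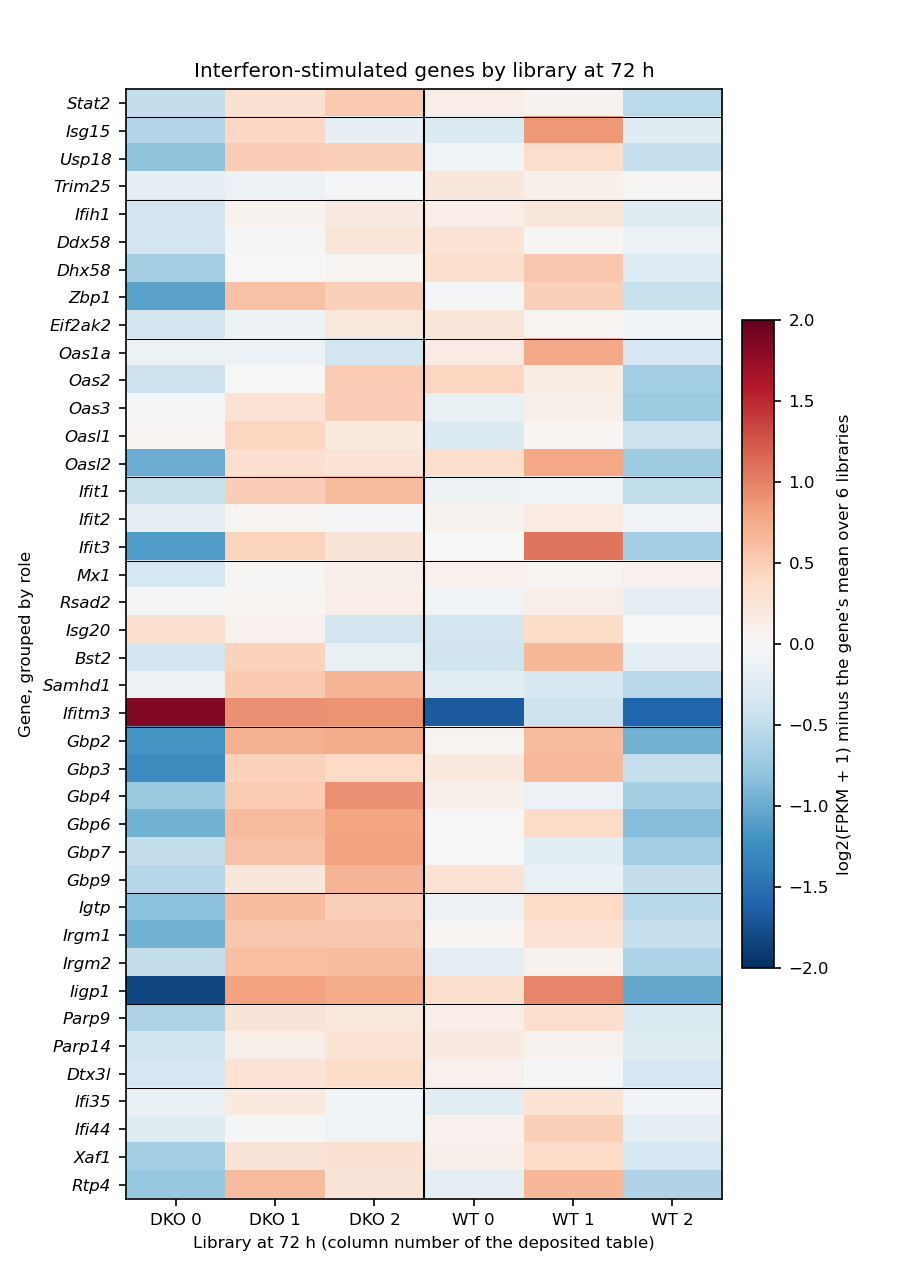
Log2(FPKM + 1) of each of the 40 genes (rows, grouped by role) in each of the 6 libraries at 72 h (columns), minus the gene's mean over the 6 libraries; red is above and blue below that mean. DKO library 0 and WT library 2 are blue across most rows, with Ifitm3 the clearest exception in the DKO group.

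The spread within groups was large for this set. The median within-group SD was 0.485 on the log2(FPKM + 1) scale, against 0.156 for all genes tested, of which 5.60% had an SD at or above that of the median member. The immunity-related GTPase Iigp1 varied most among the GTPases, by 7.57-fold between its highest and lowest library. It stood at 9.82, 66.2 and 63.4 FPKM in DKO libraries, against 46.6, 74.4 and 17.7 FPKM in WT libraries. Gbp2 was likewise lowest in DKO library 0 and next lowest in WT library 2, with 66.5, 251 and 255 FPKM in DKO and 158, 237 and 78.6 FPKM in WT libraries. The median SE of a log2 fold change was 0.331 for these genes, against 0.124 over all genes tested.

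The first comparison asks how these genes differed between Tcf1/Lef1-deficient and WT cells after 72 h in IL-7 and IL-15. Ifitm3 was the only one of the 38 genes tested that passed the threshold, and it was higher in DKO cells. No gene was lower. Over all 10723 genes tested, 10.7% were called, 4.31% higher and 6.36% lower (limma with Benjamini-Hochberg adjustment, adjusted p under 0.05). At an unadjusted p under 0.05, 3 of the 38 genes were higher and 1 lower. Over all 10723 genes tested, 1347 were higher and 1461 lower at that limit. The log2 fold change was above 0 for 19 of 38 genes, with a median of 0.0095 against 0.0082 for all genes tested. DKO and WT libraries did not overlap for 3 genes that were higher in DKO (Ifitm3, Samhd1 and Oasl1) and 1 that was lower (Trim25), against 34.1% of all genes tested with no overlap in either direction. The median depends on single libraries: it was 0.36 without DKO library 0, with 31 of 38 genes above 0, 0.22 without WT library 1, also with 31 above 0, and -0.15 without WT library 2, with 12 above 0. Since these are bulk samples, fewer cells that express a gene and less RNA per cell cannot be told apart.

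**Figure D2:**
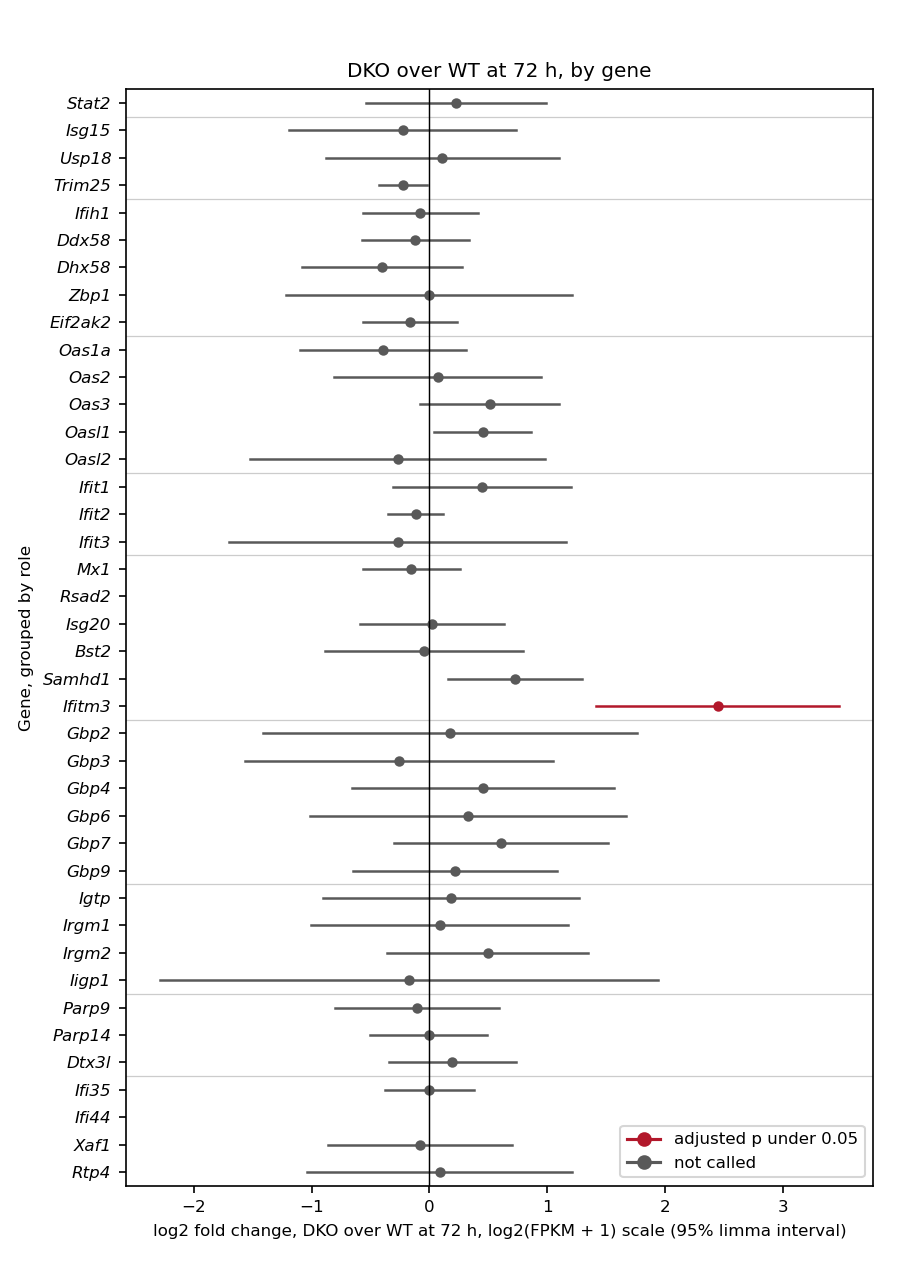
Log2 fold change of DKO over WT at 72 h on the log2(FPKM + 1) scale (points) with the 95% limma interval (lines), for the 38 genes tested; Rsad2 and Ifi44 were below the filter. Only the interval of Ifitm3 (1.41 to 3.47, red) belongs to a gene past the threshold, and the intervals of the GTPases are among the widest.

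Ifitm3 encodes a membrane protein that blocks the entry of enveloped viruses by acting on endosomes. It stood at 62.4, 32.4 and 32.0 FPKM in DKO libraries, against 4.58, 12.2 and 4.88 FPKM in WT libraries. Every DKO library was above every WT library, and DKO library 0, low for most of the other genes, was the highest for this one. The means were 42.3 ± 17.5 FPKM in DKO and 7.22 ± 4.32 FPKM in WT (SD, n = 3 each), 5.85-fold apart, with a difference of 2.44 on the log2(FPKM + 1) scale (SE 0.42, limma adjusted p = 0.021). Leaving out any of the 3 DKO libraries, or WT library 0 or WT library 2, ended the call, with limma adjusted p between 0.052 and 0.069 and log2 fold changes from 2.13 upward. Its neighbours and paralogs Ifitm1 and Ifitm2, named after their values were seen, were not called (limma adjusted p = 0.115 and 0.313). Ifitm1 stood at 133, 43.6 and 29.95 FPKM in DKO libraries, against 7.34, 26.5 and 5.58 FPKM in WT libraries, with no overlap. Ifitm2 stood at 46.4, 26.3 and 15.1 FPKM in DKO libraries, against 3.70, 25.6 and 10.9 FPKM in WT libraries, which do overlap. DKO library 0 was the highest of the 6 for all 3 genes, and reads may be shared between such close paralogs.

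Samhd1 encodes an enzyme that degrades deoxynucleotides and so limits reverse transcription of retroviruses. It stood at 350, 550 and 607 FPKM in DKO libraries, against 325, 306 and 260 FPKM in WT libraries, with no overlap. Its log2 fold change of 0.72 (SE 0.23) missed the threshold (limma adjusted p = 0.114), and passed it without DKO library 0 (0.96, limma adjusted p = 0.045). Among the other antiviral effectors, Bst2, whose product tethers budding viruses to the cell, had 152, 271 and 177 FPKM in DKO libraries, against 148, 311 and 172 FPKM in WT libraries, and these ranges overlap. Isg20, an exonuclease gene, had 10.6, 8.85 and 6.22 FPKM in DKO libraries, against 6.12, 11 and 8.22 FPKM in WT libraries. Mx1, a dynamin-like GTPase gene, was close to the filter, with 0.590, 1.07 and 1.17 FPKM in DKO libraries, against 1.15, 1.11 and 1.16 FPKM in WT libraries. Rsad2, which encodes viperin, lay between 0.464 and 0.626 FPKM in DKO and between 0.297 and 0.600 FPKM in WT libraries, and was not tested.

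**Figure D3:**
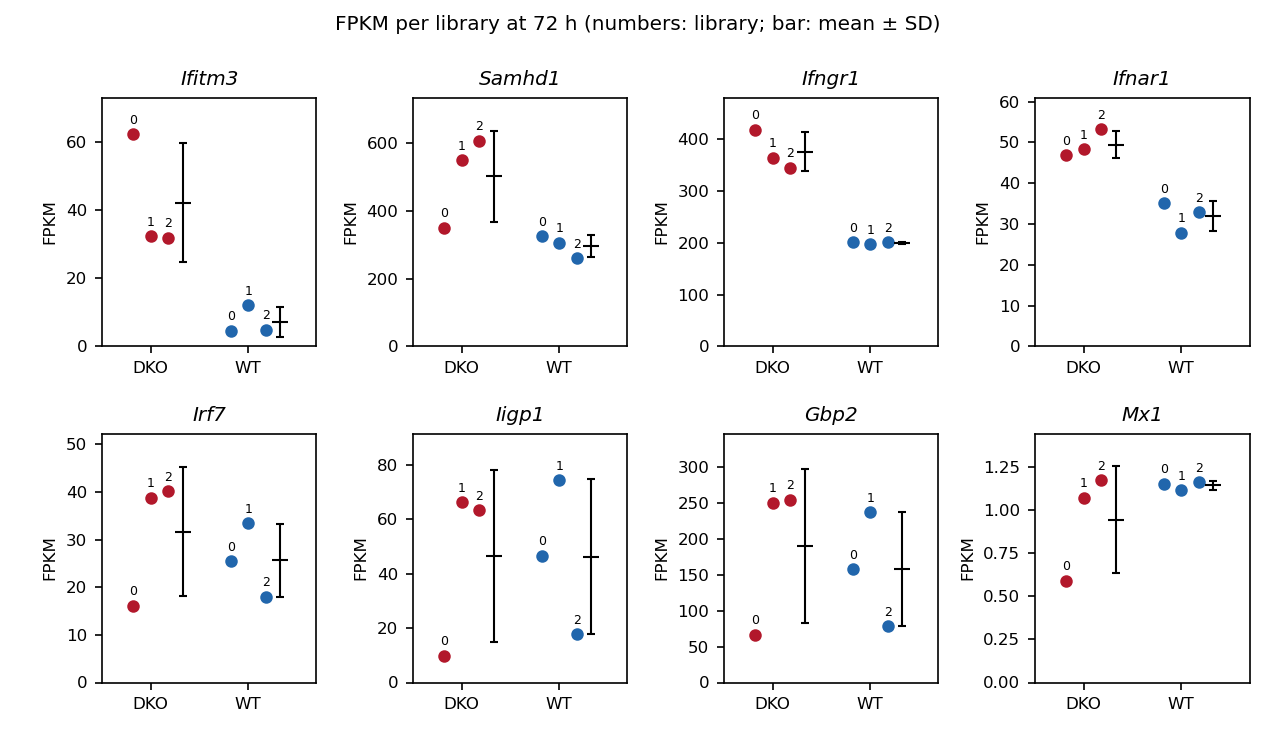
FPKM at 72 h in each library (points, numbered by library) of 8 genes, with the mean ± SD of each group beside them; all axes start at 0. Ifitm3, Samhd1, Ifngr1 and Ifnar1 do not overlap between DKO and WT, while Irf7, Iigp1 and Gbp2 are low in DKO library 0 and WT library 2.

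Of the factor and ISGylation genes none was called. Stat2, the interferon-specific STAT, stood at 15.4, 27.3 and 32.0 FPKM in DKO libraries, against 24.2, 23.0 and 14.7 FPKM in WT libraries. Isg15, a ubiquitin-like protein that is attached to other proteins, stood at 11.7, 24.5 and 15.9 FPKM in DKO libraries, against 14.7, 33.6 and 15.1 FPKM in WT libraries. Both ranges overlap between the genotypes. Trim25, a ligase gene that acts with the sensor RIG-I, had 21.6, 22.6 and 24.1 FPKM in DKO libraries, against 29.0, 26.4 and 25 FPKM in WT libraries. Its groups did not overlap and its log2 fold change of -0.22 (SE 0.083) had a limma adjusted p of 0.157. Trim25 had the smallest spread of the factor and ISGylation genes.

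The sensors of foreign nucleic acid also gave no call. Zbp1, a sensor of Z-form nucleic acid, had the highest level of this group, with 46, 148 and 136 FPKM in DKO libraries, against 95.8, 137 and 72.0 FPKM in WT libraries. Ddx58, which encodes RIG-I, had 20.6, 26.7 and 32.6 FPKM in DKO libraries, against 33.3, 27.7 and 25.2 FPKM in WT libraries. All 5 sensors were lowest in DKO library 0 and WT library 2 of their groups. Dhx58, which encodes LGP2, a relative of RIG-I, had 3.91, 6.80 and 7.05 FPKM in DKO libraries, against 8.67, 10.3 and 5.50 FPKM in WT libraries (log2 fold change -0.40, limma adjusted p = 0.412). Eif2ak2, which encodes the kinase PKR that stops translation on double-stranded RNA, had 8.69, 10.6 and 13.4 FPKM in DKO libraries, against 13.7, 12 and 11 FPKM in WT libraries. Ifih1, which encodes the sensor MDA5, lay between 2.07 and 3.50 FPKM in DKO and between 2.36 and 3.65 FPKM in WT libraries.

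Oligoadenylate synthetases make the second messenger that activates RNase L, and their relatives OASL1 and OASL2 are grouped with them. Oasl1 had 2.67, 3.75 and 3.07 FPKM in DKO libraries, against 1.93, 2.62 and 1.61 FPKM in WT libraries, with no overlap (log2 fold change 0.45, SE 0.17, limma adjusted p = 0.158). Oas3 had 18.9, 23.7 and 27.3 FPKM in DKO libraries, against 17.3, 20.6 and 11.2 FPKM in WT libraries (0.51, SE 0.24, limma adjusted p = 0.246). Its ranges overlapped between DKO library 0 and WT library 1. Oasl2 had 1.88, 6.16 and 5.92 FPKM in DKO libraries, against 6.32, 8.80 and 2.49 FPKM in WT libraries. Oas1a had 1.30, 1.31 and 0.940 FPKM in DKO libraries, against 1.80, 3.22 and 0.984 FPKM in WT libraries, and its reads may be shared with other Oas1 copies. Oas2 lay between 1.54 and 3.81 FPKM in DKO and between 1.11 and 3.54 FPKM in WT libraries.

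IFIT proteins bind foreign RNA and hold back its translation. Ifit2 had 13.5, 16.1 and 15.4 FPKM in DKO libraries, against 16.5, 17.6 and 15.0 FPKM in WT libraries, the most even member of this family. Ifit3 had 2.57, 9.52 and 8.19 FPKM in DKO libraries, against 6.78, 15.2 and 3.79 FPKM in WT libraries. Ifit1 had 3.31, 7.27 and 8.17 FPKM in DKO libraries, against 4.52, 4.58 and 3.21 FPKM in WT libraries (log2 fold change 0.45, SE 0.31, limma adjusted p = 0.410). All 3 were lowest in DKO library 0 and WT library 2 of their groups. Reads of Ifit3 may be shared with its close copy Ifit3b, which was not analysed here.

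The guanylate-binding proteins (GBP) and immunity-related GTPases (IRG) are interferon-gamma-inducible GTPases that coat and break pathogen vacuoles. Igtp and Gbp2 were among the most abundant of these genes per transcript length. None of the 10 GTPase genes was called between the genotypes. Igtp, which encodes Irgm3, stood at 196, 527 and 482 FPKM in DKO libraries, against 319, 454 and 235 FPKM in WT libraries. Irgm1, a regulator of the other IRG proteins, had 48.7, 137 and 137 FPKM in DKO libraries, against 96.7, 115 and 68.5 FPKM in WT libraries. Irgm2 had 45.1, 97.1 and 97.8 FPKM in DKO libraries, against 55.4, 66.9 and 40.9 FPKM in WT libraries (log2 fold change 0.49, SE 0.35, limma adjusted p = 0.421). For all 10 GTPases the lowest DKO library was library 0 and the lowest WT library was library 2. On the log2(FPKM + 1) scale the median deviation of the 6 GBP genes was -0.85, 0.55 and 0.77 in DKO libraries and 0.07, 0.13 and -0.67 in WT libraries, and that of the 4 IRG genes was -0.88, 0.61 and 0.57 in DKO and -0.04, 0.34 and -0.59 in WT libraries. Gbp4 had 57.3, 138 and 184 FPKM in DKO libraries, against 104, 89.1 and 61.0 FPKM in WT libraries. Gbp7 had 38.9, 82.8 and 96.7 FPKM in DKO libraries, against 54.8, 46.9 and 33.6 FPKM in WT libraries (log2 fold change 0.61, SE 0.37, limma adjusted p = 0.357). Gbp4 and Gbp7 were thus higher in DKO libraries 1 and 2 than in any WT library, and DKO library 0 lay below the WT range for Gbp4 and within it for Gbp7. Gbp3, Gbp6 and Gbp9 lay between 9.30 and 65.1 FPKM in DKO and between 16 and 49 FPKM in WT libraries. The family sits in 2 clusters on GRCm38. Gbp7, Gbp3 and Gbp2 lie on chromosome 3 (142530336 to 142638008), and Gbp9, Gbp4 and Gbp6 on chromosome 5 (105076464 to 105295871). Copies within a cluster may share reads.

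Parp9 and Dtx3l encode partners of a complex that in human cells acts on histones, and Parp14 encodes a related ADP-ribosyltransferase. Dtx3l had 42.8, 66.6 and 71.5 FPKM in DKO libraries, against 58.3, 53.6 and 43.4 FPKM in WT libraries, and Parp9 had 25.8, 48.4 and 46.6 FPKM in DKO libraries, against 44.1, 51.0 and 32.7 FPKM in WT libraries. Parp14 lay between 27.7 and 44.6 FPKM in DKO and between 30.9 and 41.8 FPKM in WT libraries. The ranges of all 3 genes overlapped. Dtx3l (chromosome 16, 35926515 to 35939027) and Parp9 (35938470 to 35972621) overlap at their ends, so reads there cannot be assigned without strand. Of the remaining genes, Ifi35 was among the most even, with 62.6, 79.0 and 66.3 FPKM in DKO libraries, against 59.6, 83.2 and 66.1 FPKM in WT libraries. Rtp4 had 25.4, 67.9 and 52.0 FPKM in DKO libraries, against 37.7, 69.5 and 28.4 FPKM in WT libraries. Xaf1 lay between 14 and 28.6 FPKM in DKO and between 18 and 30.3 FPKM in WT libraries. Usp18, the protease that removes ISG15, lay between 5.51 and 14.9 FPKM in DKO and between 7.18 and 13.5 FPKM in WT libraries. Ifi44 was not tested, at 0.140 to 0.316 FPKM in DKO and 0.188 to 0.885 FPKM in WT libraries.

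The second comparison is of the genotypes before culture, set beside that after it, which the authors' deposited table gives as log2 fold changes with q-values from Cuffdiff. At 72 h, 8 of the 40 genes were higher and 0 lower in DKO than in WT cells in the authors' deposited table (q under 0.05), where 6.46% of rows with a p under 1 were higher and 9.87% lower. At 0 h, 27 of the 40 were higher and 2 lower in the authors' deposited table, where 14.7% of such rows were higher and 16.9% lower. The limma test above called 1 of the 8 genes higher at 72 h, Ifitm3, and why the 2 methods differ was not tested. The median log2 fold change of the 40 genes in the authors' deposited table was 0.04 at 72 h, with 23 genes above 0, and 0.43 at 0 h, with 36 above 0.

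All 8 genes higher at 72 h were also higher at 0 h in the authors' deposited table. They are Ifit1, Oas3, Gbp4, Gbp6, Gbp7, Irgm2, Samhd1 and Ifitm3. The share of all rows higher at both times was not computed. Ifitm3 had the largest value of the 40 at both times in the authors' deposited table, 2.55 at 72 h and 4.27 at 0 h. The 4.27 is relative to a low WT level at 0 h, as its culture change below implies, so its size is uncertain. Samhd1 was next at both times in the authors' deposited table, with 0.76 at 72 h and 1.43 at 0 h. A further 19 genes were higher at 0 h and not called at 72 h in the authors' deposited table. Among them, Rsad2 had 0.31 at 72 h and 0.92 at 0 h in the authors' deposited table, and Oasl2 had -0.33 at 72 h and 0.80 at 0 h. The 2 genes lower in DKO at 0 h were Gbp3, with -0.15 at 72 h and -0.51 at 0 h, and Oas1a, with -0.76 at 72 h and -0.43 at 0 h, in the authors' deposited table. Parp9, Parp14 and Dtx3l were called at neither time in the authors' deposited table. Most of these values are small: the authors' own lists, which add a fold threshold, held Ifitm3 at 72 h and 2 of the 40 genes, Ifitm3 and Samhd1, at 0 h, all higher in DKO, in the authors' deposited table. The difference between the times was not tested, and libraries at 0 h were not analysed here, so whether 1 library sets the 0 h values is not known.

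**Figure D4:**
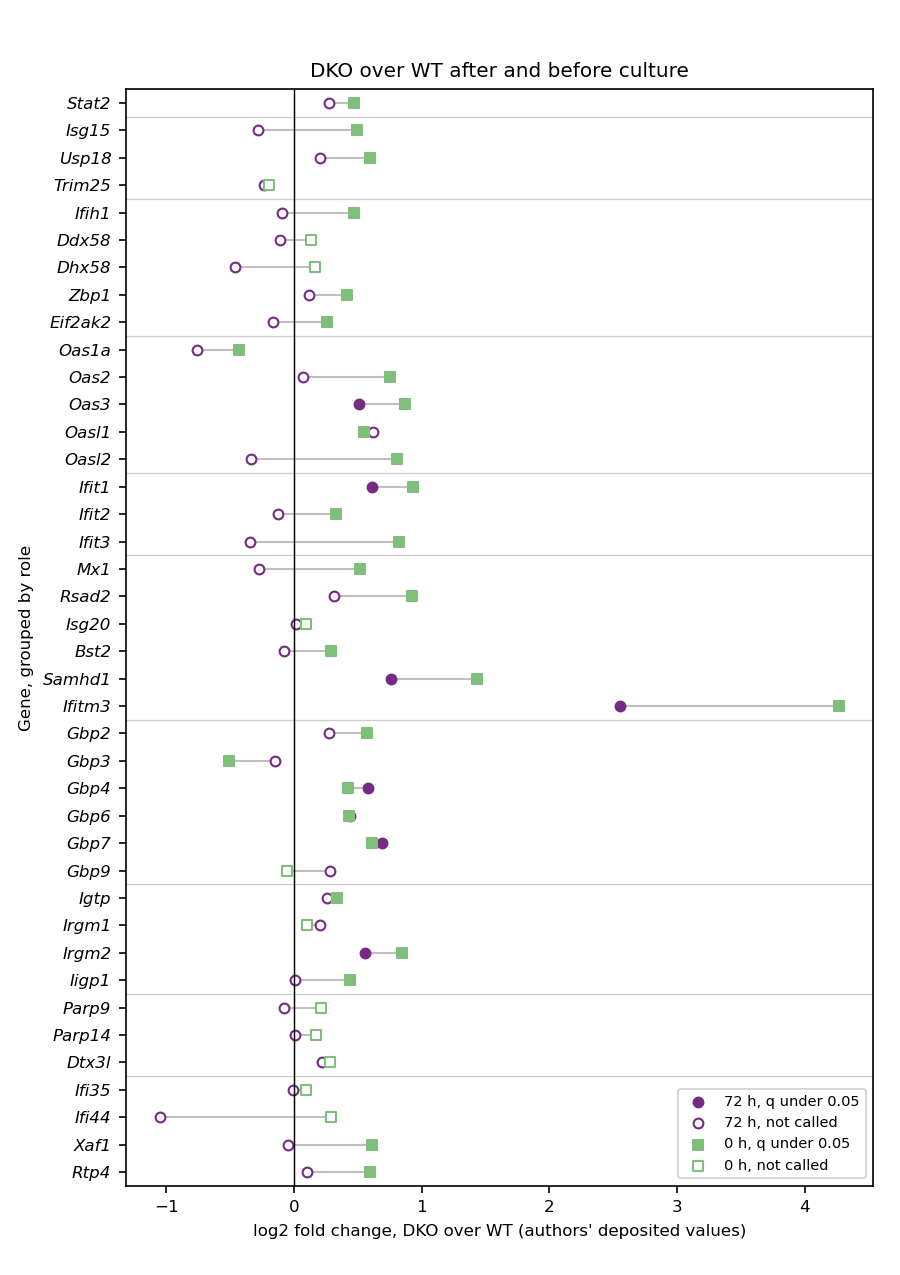
The authors' deposited log2 fold changes of DKO over WT at 72 h (purple circles) and at 0 h (green squares) for the 40 genes, with filled symbols for q under 0.05. Most genes lie to the right of 0 at 0 h (36 of 40) and close to 0 at 72 h, and Ifitm3 is farthest right at both times.

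The third comparison is of 72 h in IL-7 and IL-15 with 0 h within each genotype, and in both genotypes all 5 oligoadenylate synthetase genes were lower, and all 4 IRG genes and 5 of 6 GBP genes higher, in the authors' deposited table. Of the 40 genes, 12 were higher and 22 lower at 72 h in DKO cells, and 13 were higher and 16 lower in WT cells, in the authors' deposited table (q under 0.05). Of rows with a p under 1 in the authors' deposited table, 24.8% were higher and 20.4% lower in DKO cells, and 25.8% were higher and 22.1% lower in WT cells. The comparisons in DKO and in WT cells share no libraries. Both genotypes together, 12 genes were higher in both, 16 lower in both, 6 (Trim25, Zbp1, Ifit2, Ifi44, Xaf1 and Rtp4) lower with a call in DKO alone, 1 (Stat2) higher with a call in WT alone, and 0 were called in opposite directions in the authors' deposited table. The share of all rows called alike in both genotypes was not computed, and the difference between the genotypes in these changes was not tested. These changes pool the libraries of a group. For the GBP and IRG genes, DKO library 0 and WT library 2 were the lowest of their groups at 72 h. Whether a rise held in each library was not tested.

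Of the oligoadenylate synthetase genes, Oas2 had the largest fall in the authors' deposited table, with log2 fold changes of -3.36 in DKO and -2.66 in WT cells. All 3 IFIT genes were lower in DKO cells and 2 of 3 in WT cells in the authors' deposited table. Ifit1 had -2.25 in DKO and -1.91 in WT cells, Ifit3 had -2.07 in DKO and -0.88 in WT cells, and Ifit2 had -0.48 in DKO and -0.01 in WT cells (not called in WT) in the authors' deposited table. Rsad2 had the largest fall of the 40 genes in the authors' deposited table, with -3.87 in DKO and -3.23 in WT cells, a 14.6-fold and a 9.40-fold lower level at 72 h. Mx1 had -3.68 in DKO and -2.87 in WT cells in the authors' deposited table. Isg15 had -1.59 in DKO and -0.80 in WT cells, and Usp18, which removes it, had -1.86 in DKO and -1.45 in WT cells in the authors' deposited table. Of the sensors, Ifih1 had -1.79 in DKO and -1.21 in WT cells, Dhx58 had -1.43 in DKO and -0.79 in WT cells, and Ddx58 had -0.79 in DKO and -0.53 in WT cells in the authors' deposited table, while Zbp1 had -0.36 in DKO and -0.04 in WT cells (not called in WT) and Eif2ak2 was called in neither. The exonuclease gene Isg20 had -1.52 in DKO and -1.42 in WT cells in the authors' deposited table.

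The 12 genes higher at 72 h in both genotypes were the 4 IRG genes, 5 GBP genes, Ifitm3, Samhd1 and Bst2 in the authors' deposited table. Iigp1 had 1.90 in DKO and 2.35 in WT cells, Igtp had 1.85 in DKO and 1.95 in WT cells, Irgm2 had 1.37 in DKO and 1.68 in WT cells, and Irgm1 had 0.71 in DKO and 0.62 in WT cells in the authors' deposited table. Gbp3 had 1.65 in DKO and 1.31 in WT cells, Gbp2 had 1.29 in DKO and 1.60 in WT cells, and Gbp9, the only GBP gene lower in both, had -0.73 in DKO and -1.05 in WT cells in the authors' deposited table. Ifitm3 had 2.12 in DKO and 3.86 in WT cells in the authors' deposited table, a 4.35-fold and a 14.5-fold higher level at 72 h. Its WT mean at 72 h was only 7.22 FPKM, so the 14.5-fold rise starts from a low WT level and its size is uncertain. Samhd1 had 0.48 in DKO and 1.17 in WT cells, and Bst2 had 0.36 in DKO and 0.75 in WT cells in the authors' deposited table. The 3 genes Parp9, Parp14 and Dtx3l were called in neither genotype, with log2 fold changes between -0.20 and 0.16 in the authors' deposited table. The 0 h and 72 h libraries differ in culture and in time, which cannot be told apart.

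**Figure D5:**
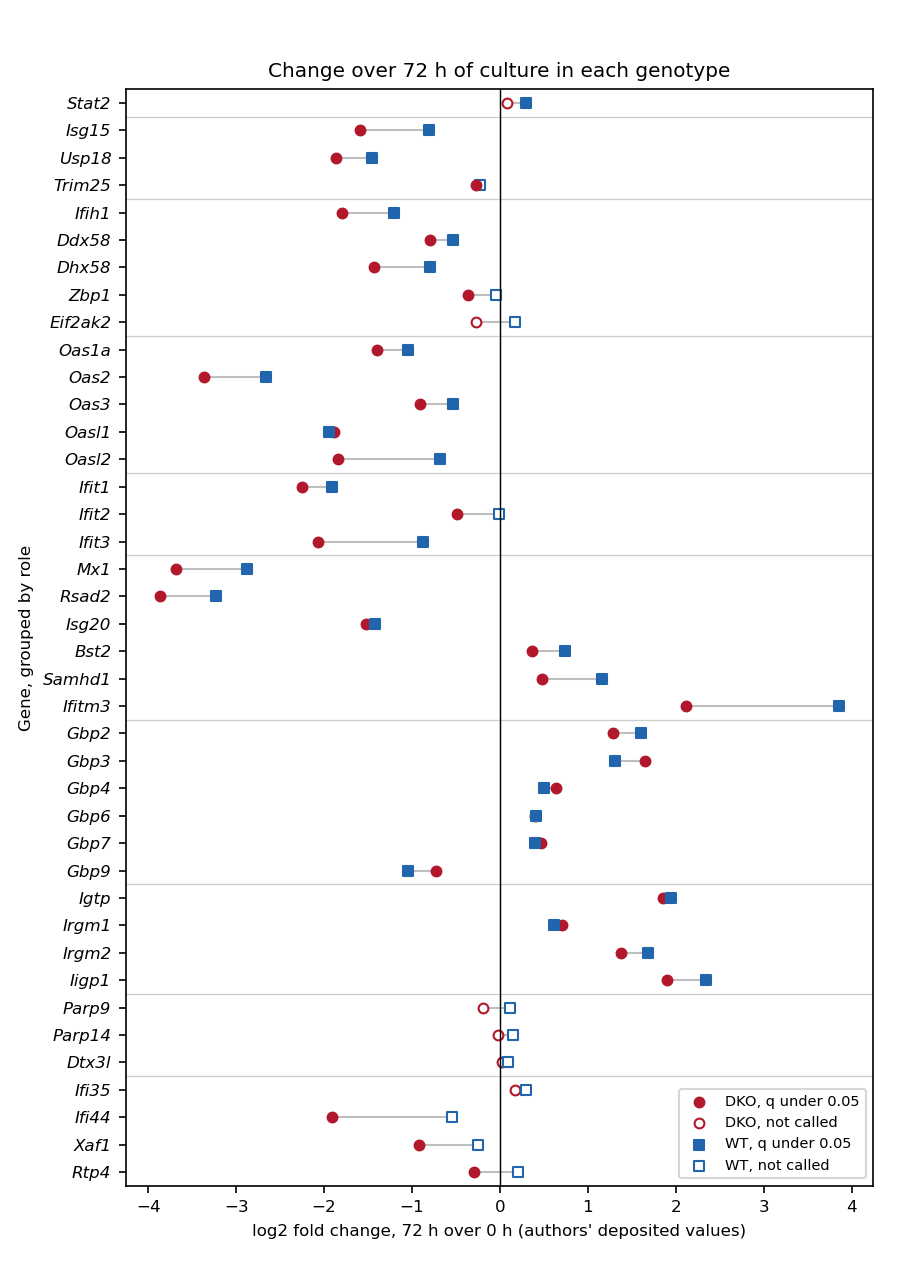
The authors' deposited log2 fold changes of 72 h over 0 h in DKO (red circles) and WT cells (blue squares) for the 40 genes, with filled symbols for q under 0.05. The oligoadenylate synthetase and IFIT genes, Mx1 and Rsad2 lie left of 0, and the IRG genes, 5 of 6 GBP genes and Ifitm3 lie right of 0.

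Other genes of the interferon pathway were read at 72 h from a list of 96, of which 94 were analysed here and 75 reached the filter and were tested. Of these 75, 4 were higher and 2 lower in DKO cells, a share near the 10.7% called among all genes tested. Among 8 receptor and kinase genes, 2 were higher and 1 was lower. Ifngr1, the ligand-binding chain of the interferon gamma receptor, stood at 419, 365 and 345 FPKM in DKO libraries, against 202, 198 and 202 FPKM in WT libraries (log2 fold change 0.90, SE 0.10, limma adjusted p = 0.0067). Ifnar1, a chain of the type I interferon receptor, stood at 46.9, 48.3 and 53.2 FPKM in DKO libraries, against 35.1, 27.9 and 32.9 FPKM in WT libraries (0.62, SE 0.11, limma adjusted p = 0.021). Il10rb, a chain shared by the receptors for IL-10 and for type III interferons, stood at 46.1, 48.8 and 45.4 FPKM in DKO libraries, against 81.6, 86.3 and 76.7 FPKM in WT libraries (-0.79, SE 0.076, limma adjusted p = 0.0042). None of the 3 overlapped between the groups, and DKO library 0 was above every WT library for Ifngr1 and Ifnar1. The call of Ifnar1 ended without DKO library 0, 1 or 2 or WT library 2, while those of Ifngr1 and Il10rb held without any single library. Without WT library 0 and DKO library 2 together, which were chosen because earlier work on these data found them to deviate together, none of these 3 receptor calls remained (limma adjusted p up to 0.092), with 2 libraries left in each group and log2 fold changes of 0.96 for Ifngr1, 0.63 for Ifnar1 and -0.77 for Il10rb.

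None of 7 factor genes was called. Irf7 stood at 16.1, 38.8 and 40.2 FPKM in DKO libraries, against 25.5, 33.4 and 18 FPKM in WT libraries, and Irf9 at 52.1, 82.5 and 79.9 FPKM in DKO libraries, against 54.2, 60.6 and 52.3 FPKM in WT libraries. Both genes, themselves interferon-stimulated, were lowest in DKO library 0 and WT library 2 like the genes above. Of 5 feedback inhibitors 1 was lower: Ptpn6, which encodes the phosphatase SHP-1, stood at 78.5, 81.5 and 67.7 FPKM in DKO libraries, against 104, 125 and 118 FPKM in WT libraries (-0.60, SE 0.11; limma adjusted p = 0.027). Its call ended without any of the DKO libraries, WT library 1 or WT library 2. None of the 9 sensing genes tested was called. No interferon gene reached the filter: Ifnb1, Ifna1, Ifna2, Ifna4, Ifnl2 and Ifnl3 were listed at 0 in every library, and Ifng stood at 0.284, 0.807 and 0.701 FPKM in DKO libraries, against 0.104, 0 and 0.127 FPKM in WT libraries.

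Of 46 further interferon-stimulated genes tested, 2 were higher and 0 lower. Slfn5, a Schlafen family gene, stood at 24.0, 23.7 and 23.3 FPKM in DKO libraries, against 3.08, 2.14 and 3.16 FPKM in WT libraries (log2 fold change 2.71, SE 0.12, limma adjusted p = 0.00062). Ccl5, a chemokine gene of memory and effector CD8 T cells, stood at 834, 896 and 815 FPKM in DKO libraries, against 123, 214 and 99.6 FPKM in WT libraries (2.61, SE 0.28, limma adjusted p = 0.0057). For both genes every DKO library was above every WT library. The pattern of libraries reached into this list: DKO library 0 and WT library 2 were both the lowest of their groups for 37 of the 75 tested genes (49.3%), against 11.4% of all genes tested. What these 2 libraries share was not tested.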

How the data were processed

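RNA-seq data of 6 libraries of mouse CD8+ T cells, 3 labelled Tcf1-/-Lef1-/- (DKO) and 3 labelled wild type (WT), were read from 1 deposited table, and groups were assigned from sample titles. FastQC, TopHat2 (2.1.0) and Cuffdiff (2.2.1) appear in the submitters' processing notes, as do mm10 and mm9 without a stated use; no source used here gives the annotation. The authors deposited FPKM per library, scaled by Cuffdiff within the pair of groups, and for each comparison log2 fold changes with p-values and q-values. Results at 0 h are those of the authors' table alone; 6 columns of single 0 h libraries belong to no sample here and were not used.

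The test here ran on log2(FPKM + 1), which understates fold changes of low genes. It was limma (3.58.1, R 4.3.3) with trended variances and no covariate, two-sided, over the 10723 genes averaging 1 FPKM or more, at a Benjamini-Hochberg adjusted p of 0.05. The code was tested on simulated data. The values are not counts, so no count test was run and depth is unknown. Named with all library values are members called, the 12 smallest p, the 2 most abundant per role, and pathway genes called, besides Irf7, Irf9, Ifnar1 and Ifngr1; a further gene of that rule is not reported here. Iigp1, Isg20, Mx1, Ifitm1, Ifitm2 and Ifng fall outside that rule and were picked with their values in view. Members, lists and rules were chosen with earlier results of these data known. Promoters are RefSeq's on GRCm38.p6 and gene positions are on GRCm38 (Python 3.11.15). Alternatives covered pseudocounts, filters, scalings, variance priors, small RNA rows, a minimum fold change, a block for column number, and libraries left out.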

Additional observations from a re-analysis of the deposited data

How the results depend on the processing

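The counts of 1144 genes, 1 interferon gene and 6 pathway genes called at 72 h moved by less than 1.5 times with pseudocounts of 0.1 or 0.5, no filter or a mean of at least 5 FPKM, 2 other scalings, 2 other variance priors, or small RNA rows left out. Leaving out 1 library at a time gave 388 to 765 genes, 0 to 1 interferon genes and 4 to 6 pathway genes, and a median log2 fold change of the interferon genes between -0.149 and 0.361. Dropping both WT library 0 and DKO library 2 left 28 genes, 0 interferon genes and 1 pathway gene (Slfn5). An added threshold of 1 on the absolute log2 fold change left 379 genes, 1 interferon gene and 2 pathway genes. Scalings moved the median of all genes by under 0.1. Ifitm3 kept its direction in all 17 alternatives, with log2 fold changes of 2.13 to 2.85 and limma adjusted p of 0.0079 to 0.123, and lost its call in 7 of them. The cause was not tested.

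With the column number as a replicate block, 356 genes, 0 interferon genes and 3 pathway genes were called. Whether the numbers pair the libraries is not known. Deviations of same-numbered DKO and WT libraries from their group means correlated at -0.168, 0.036 and -0.014 across genes. With group means of only 3 libraries, such values cannot settle whether libraries are paired.

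In the authors' deposited table, their own lists hold fewer of the 40 genes than a q under 0.05 alone: 1 against 8 higher in DKO at 72 h, 2 against 27 higher and 0 against 2 lower at 0 h, 6 against 12 higher and 13 against 22 lower over the culture in DKO cells, and 7 against 13 higher and 10 against 16 lower in WT cells. The lists add thresholds on fold and level, and the share of all genes on them was not computed.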
